A study of Mus musculus with 4 samples.

Results

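The genes described here build sterols, fatty acids and triglycerides in the liver cell. There are 37 of them, taken by symbol from a list of 6 regulators, 13 enzymes of sterol synthesis, 12 genes of fatty acid synthesis and 6 of triglyceride synthesis. All 37 were on the array and well above background on all 4 arrays, out of 20615 genes with a probe well above background on at least 1 array. Of these 37, 23 had more than 1 probe above background, and the probe with the highest mean level stood for the gene.

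Primary hepatocytes of C57BL/6 mice were cultured in high-glucose medium (4500 mg/L) with 1 μM insulin and 10% fetal bovine serum and were harvested 24 h after seeding. Control hepatocytes (labelled wild-type, and as Drp1flox on the palmitate array) and Drp1LiKO hepatocytes were kept without added fatty acid (untreated) or exposed to the saturated fatty acid palmitate at 200 μM, with 1 array for each of the 4 groups. Drp1LiKO mice carry floxed alleles of Dnm1l, which encodes the fission protein Drp1 of mitochondria, and Cre recombinase under the albumin promoter, which is active in hepatocytes. The methods name floxed littermates without Cre as controls and male animals, and the age of the hepatocyte donors and the length of the palmitate treatment of the array samples are not given in the sources used here. No group has a replicate, so a difference between 2 arrays has no spread between animals or cultures behind it, and the raw data of the untreated control array also belong to another series. A first slide carried both untreated arrays and another both palmitate arrays, so palmitate and slide cannot be told apart, while each slide holds both genotypes. The questions addressed are how the transcripts of these pathways differ when Drp1 is missing, and how they respond to palmitate.

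As background, the cell makes cholesterol from acetyl-CoA through mevalonate, farnesyl diphosphate, squalene and lanosterol. Fatty acids are made from the same acetyl-CoA by carboxylation, chain assembly, elongation and desaturation, and triglycerides by stepwise acylation of glycerol 3-phosphate. The transcription factor SREBP-2 (Srebf2) mainly drives the sterol genes, SREBP-1c (from Srebf1) the fatty acid genes in response to insulin, and ChREBP (Mlxipl) responds to glucose. Scap escorts the SREBP proteins from the endoplasmic reticulum for activation, and the Insig proteins hold Scap back when sterols are plentiful.

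Levels are given as log2 signal minus the 75th percentile of the array, so 0 is that percentile, and differences are differences of these levels. Values given 4 in a row stand for control, Drp1LiKO, control with palmitate and Drp1LiKO with palmitate. A gene is called different between 2 arrays when its difference is at least 2-fold (1 in log2). Repeat spots of a probe within an array differ with an SD of 0.0523 for a difference between 2 arrays, which is spot noise only. The 75th percentile lay at intensities between 424 and 542, and between 27876 and 31516 of 59305 spots per array were well above background. The brighter Dnm1l probe read 2.42, 1.07, 2.43 and 1.01, lower on both Drp1LiKO arrays. The other Dnm1l probe was dim and not above background on either palmitate array, and differed by −0.35 untreated and 0.22 with palmitate. Of 12 listed hepatocyte markers 11 were measured, with Alb at 8.82, 9.03, 8.73 and 9.01. Tat and Cps1 of the same list read below 0 on every array, Cps1 at −2.89, −1.96, −3.59 and −2.48. Most listed markers of some other cell types were measured too, so the count alone does not bear out the label.

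Markers of other liver cells differed with genotype and stand beside every genotype result given here. Of 13 measured macrophage markers of 14 listed, 13 read higher in untreated Drp1LiKO, with a median difference of 2.34. With palmitate 11 of 12 compared read higher, with a median of 1.72, and Itgam read lower by 0.36. Of those 12, 4 were above background on 1 array of the pair only, and with these at their lower bounds the median was 1.65. The summed macrophage signal was 3141%, 6115%, 3855% and 5897% of the 75th percentile. The Kupffer cell marker Clec4f was not above background on either control array and was on both Drp1LiKO arrays. Of the endothelial markers 9 of 9 compared read higher untreated and 7 of 8 with palmitate, with medians of 1.63 and 0.87 when a marker above background on only 1 array of a pair is set at its lower bound. Their summed signal was 170%, 496%, 168% and 355%. Of the stellate cell markers 8 of 8 compared read higher untreated and 7 of 7 with palmitate, 4 of them in each case above background on 1 array of the pair only. With those at their bounds the medians were 1.67 and 0.79. The summed stellate signal was 4501%, 6073%, 4630% and 5823%, with Des not above background on any array. Most of that sum came from Acta2, which differed by 0.22 untreated and 0.02 with palmitate, while Dcn differed by 4.19 and 4.04. In 5 listed cholangiocyte markers the summed signal was 6053%, 4176%, 5710% and 4363%, mostly from Spp1, with Epcam not above background. Neutrophil and lymphocyte markers summed to between 5.71% and 68.5%, with S100a9 not above background on any array. Of the 5 adipocyte markers, Adipoq, Plin1, Cfd and Retn were not above background on any array. The 11 measured hepatocyte markers had median differences of 0.24 and 0.28, and their summed signal was 67397%, 78241%, 63547% and 73926%. Of these 11, 9 read higher in Drp1LiKO untreated and 7 with palmitate. In each condition 3 were at least 2-fold higher, Tat and Tdo2 in both, Ass1 untreated and Cps1 with palmitate, and 0 were 2-fold lower. Fewer cells of a type and less RNA per cell cannot be told apart in such samples, and the part of these markers in the differences below was not tested.

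**Figure D1:**
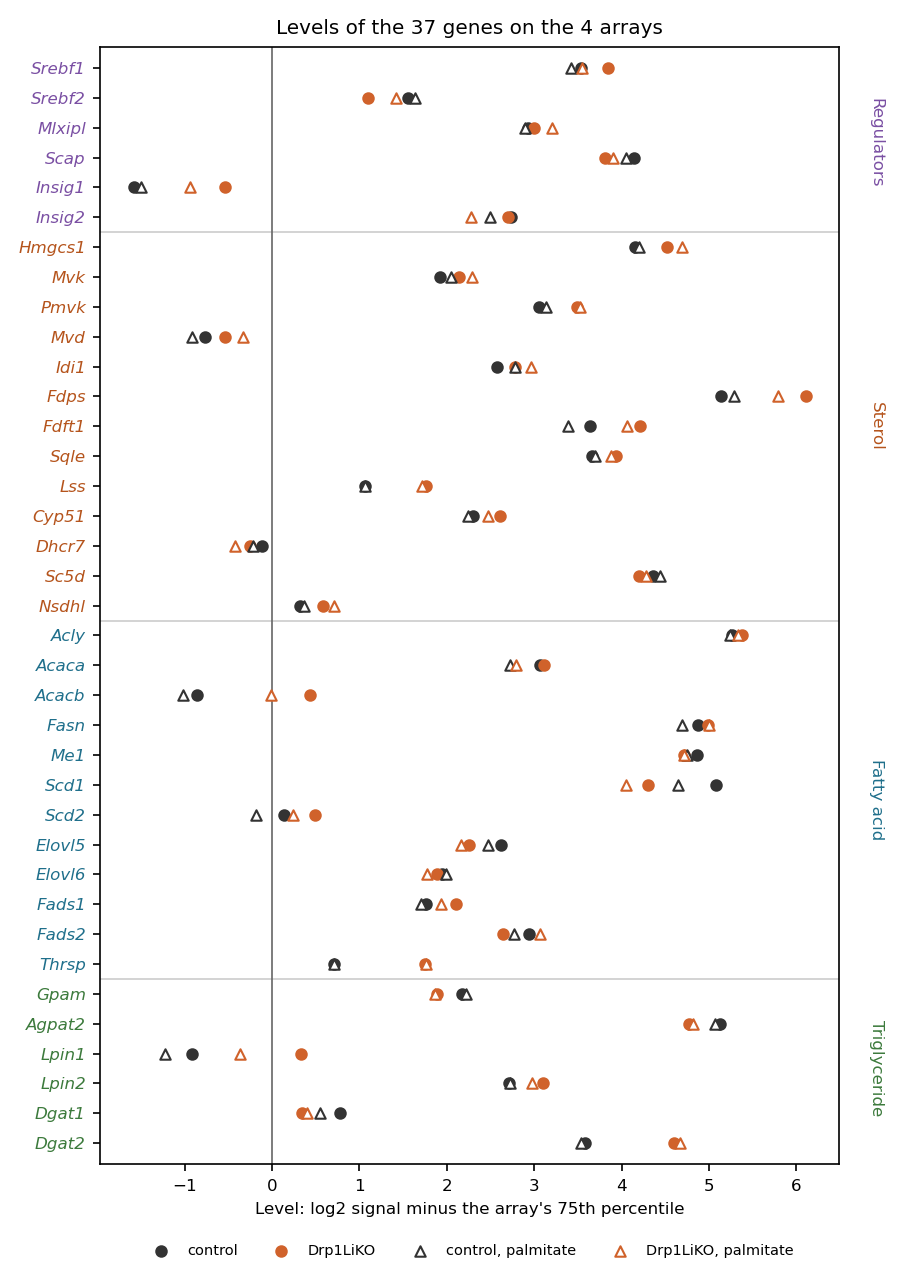
Level of each of the 37 genes (log2 signal minus the array's 75th percentile, x axis) on the 4 arrays, with 1 point per array, black for control and orange for Drp1LiKO, circles for untreated and triangles for palmitate. For 10 of 13 sterol genes both orange points lie to the right of both black points, Scd1 shows the opposite order, and circles and triangles of 1 genotype mostly lie close together.

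In untreated cells, 5 of the 37 genes were called between the genotypes, all higher in Drp1LiKO. They were Acacb, Lpin1, Insig1, Thrsp and Dgat2. Under normexp background correction 2 were called, Lpin1 and Dgat2, with Insig1 at 0.79, Thrsp at 0.99 and Acacb at −0.30. With the mean of all probes 3 were called, Insig1, Dgat2 and Lpin2, with Thrsp at 0.98, Lpin1 at 0.49 and Acacb at 0.37. With the authors' processed values 6 were called, the 5 above and Fdps at 1.05. Over all 19875 genes compared the same rule called 14.4%, and 8.84% were called higher, against 5 of 37 members. All members were well above background on every array, and among the 16611 genes of that kind it called 7.22%, with 3.97% called higher. At 1.5-fold, Fdps and Lss joined the 5 higher genes and Scd1 was the 1 lower gene, where 9.48% and 9.16% of the 16611 genes passed. The median difference of the members was 0.21, against −0.04 over those 16611 genes.

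With palmitate, Dgat2, Thrsp and Acacb were called, all higher in Drp1LiKO. That is 3 of 37 members, where the rule called 11.5% of 18890 genes and 7.26% were higher. Of the 16611 genes it called 5.35%, with 2.96% higher. At 1.5-fold, 6 members were higher, with Lpin1, Fdft1 and Lss added, and Scd1 was lower, against 7.48% and 6.52% of those genes. The members' median difference was 0.23, against −0.05 over the 16611 genes. The same 3 genes had been called in untreated cells, on other arrays, and 2.35% of the 16611 genes were called higher in both. Whether the untreated and palmitate cultures of a genotype came from different animals is not given in the sources used here. Both comparisons may thus repeat a single difference between animals or cell preparations. Insig1 and Lpin1 read higher in Drp1LiKO with palmitate as well, by 0.56 and 0.87, short of the threshold.

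Both genotype comparisons were set side by side gene by gene. Of the 37 genes, 24 read higher in Drp1LiKO in both conditions, 12 lower in both, and Fads2 went in opposite directions. Over the 16611 genes, 33.1% read higher in both and 45.4% lower in both. Pearson's r between the differences was 0.907 and Spearman's rho 0.882 across the 37 genes, against 0.812 and 0.729 across the 16611, and the genes of 1 pair of arrays share those arrays. For 22 members both Drp1LiKO arrays lay above both control arrays, and for 11 below, against 25.7% and 35.1% of the 16611 genes. Insig2, Idi1, Acaca and Fads2 overlapped.

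**Figure D2:**
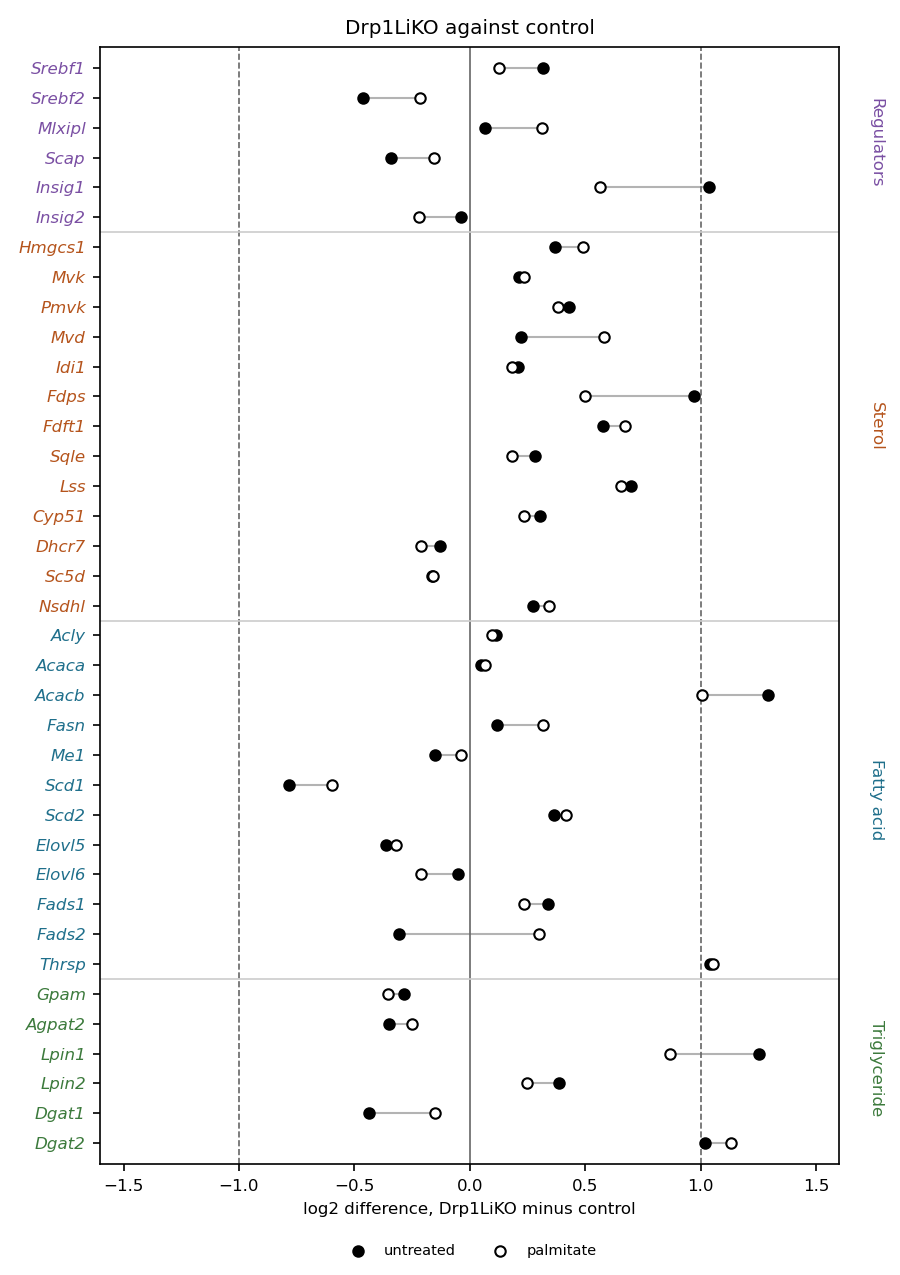
Log2 difference of Drp1LiKO minus control (x axis) for each gene, untreated (filled) and with palmitate (open), with dashed lines at 2-fold. The sterol genes other than Dhcr7 and Sc5d lie right of 0 in both conditions. Thrsp, Dgat2 and Acacb lie past the dashed line in both, and Fads2 lies on both sides of 0.

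The regulators gave no common direction, with 3 of 6 higher and 3 lower in both conditions and median differences of 0.01 and −0.01. Srebf1 read 3.53, 3.85, 3.42 and 3.55, which is 0.32 higher in untreated Drp1LiKO and 0.13 higher with palmitate. Srebf2 read 1.56 in control and 1.64 in control with palmitate, and the Drp1LiKO arrays lay below both, with differences of −0.46 and −0.21. A dimmer Srebf2 probe went the other way, with 1.17 untreated and 0.16 with palmitate. Scap read 4.14, 3.80, 4.05 and 3.90, lower in Drp1LiKO in both conditions.

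Insig1, itself a gene that SREBP proteins switch on, read −1.58 on the untreated control array, 0.08 above that with palmitate, and −0.54 and −0.93 in Drp1LiKO. Its 2 Drp1LiKO arrays were the higher ones, 2.05-fold above control untreated and 1.48-fold with palmitate. Its probe lies on chromosome 5 at 28404246 to 28404305 (mm9) and is the only Insig1 probe. Insig2 read 2.74, 2.70, 2.50 and 2.28, with both palmitate arrays below both untreated arrays, and its 2 other probes read lower with palmitate in both genotypes too. Mlxipl read 2.93, 2.99, 2.89 and 3.21, the highest value being that of Drp1LiKO with palmitate.

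Of the 13 sterol enzymes, 11 read higher in Drp1LiKO in both conditions, with Dhcr7 and Sc5d lower in both, where 33.1% of the 16611 genes read higher in both. No sterol gene was called in the main processing, and the median difference was 0.28 untreated and 0.35 with palmitate. With the authors' processed values Fdps was called in untreated cells, at 1.05. For 10 of 13 both Drp1LiKO arrays lay above both control arrays, against 25.7% of genes. Fdps, Lss, Fdft1 and Hmgcs1 differed the most on the mean of both conditions.

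The first steps make and activate mevalonate. Hmgcs1, the HMG-CoA synthase of the cytosol, read 4.15, 4.52, 4.20 and 4.69, so both Drp1LiKO arrays were higher, by 0.37 and 0.49. Pmvk, which phosphorylates mevalonate phosphate, read 3.06, 3.49, 3.14 and 3.52. Mvk, the mevalonate kinase before it, read 1.93, 2.14, 2.05 and 2.29. Each of these had 2 Drp1LiKO arrays above both control arrays. Mvd, the next decarboxylase, read −0.76, −0.54, −0.92 and −0.33, with a genotype difference of 0.22 untreated and 0.58 with palmitate.

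The middle steps join isoprene units into squalene. Idi1, the isomerase of isopentenyl diphosphate, read 2.57, 2.78, 2.78 and 2.96, so that the untreated Drp1LiKO array and the control palmitate array could not be separated. Fdps, which makes farnesyl diphosphate, read 5.13, 6.10, 5.28 and 5.78. It was 1.96-fold higher in untreated Drp1LiKO, just under the threshold, and 1.41-fold higher with palmitate, with its 1 probe on chromosome 3 at 88897549 to 88897608 (mm9). Fdft1, the squalene synthase, read 3.64, 4.21, 3.39 and 4.06, and its second probe gave differences of 0.50 and 0.58 beside 0.58 and 0.67 for the first.

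Later steps close and trim the sterol rings. Sqle, the squalene epoxidase, read 3.66, 3.94, 3.69 and 3.88, a difference of 0.28 and 0.18. Lss, which makes lanosterol, read 1.06, 1.76, 1.06 and 1.71, a difference of 0.70 and 0.65 with no palmitate response beyond 0.05 in size. Cyp51 and Nsdhl, which remove methyl groups from lanosterol and its products, differed by 0.31 and 0.27 untreated and by 0.24 and 0.35 with palmitate. Dhcr7, the last reductase, read −0.12, −0.25, −0.22 and −0.43, and Sc5d, the desaturase before it, read 4.36, 4.20, 4.44 and 4.28. Both were thus lower on the Drp1LiKO arrays, by amounts between 0.13 and 0.21. Second probes of 6 sterol genes gave the sign of the first probe in 7 of 7 cases untreated and in 6 of 7 with palmitate, where a dim Lss probe went the other way.

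Promoter sequence of these genes was read from RefSeq (GRCm38.p6), in windows from 250 bases before to 50 bases after the start site, which 29 of the 37 genes had. The stretches below are shown because SREBP proteins are known to act on sterol genes through sterol regulatory elements and together with the CCAAT-binding factor NF-Y. The element TCACNCCAC, on either strand, was in 2 of 42 windows of the members and in 1.24% of all 32851 windows. Its 2 matches, in capitals, lie before the start sites of Hmgcs1 (chr13:119690204-119690233, + strand) and Mlxipl (chr5:135106745-135106774, + strand).
Hmgcs1: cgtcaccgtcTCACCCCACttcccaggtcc
Mlxipl: atcagtggttTCACACCACgctcactggtt

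The letters CCAAT, on either strand, were in 10 of 13 windows of sterol genes, against 37.4% of all windows. Counted by gene, all 10 sterol genes with a window held the letters in at least 1 window, against 41.1% of all 27025 genes. Windows of the fatty acid genes held them in 6 of 10 cases and those of the triglyceride genes in 2 of 7. The GC box letters GGGCGG were in 10 of 13 sterol windows, against 35.7% of all, and the E-box letters CACGTG in 2 of 13, against 7.15%. The stretch around the CCAAT letters nearest the start site is given for each of the 10 sterol genes in the direction of the gene. CCAAT or its reverse complement ATTGG is in capitals. A match is a description of the letters in the window.
Hmgcs1 (chr13:119690349-119690378, + strand): ctgagtcccgggATTGGcagaggtagccgc
Mvk (chr5:114444243-114444272, + strand): tccagctctctgATTGGcctcaggaagaca
Pmvk (chr3:89454393-89454422, + strand): aactcaggttggCCAATtcacagcatctag
Mvd (chr8:122443432-122443461, - strand): ccggccagcgggCCAATcatatggcagcgc
Idi1 (chr13:8885580-8885609, + strand): gtccaaggtgccATTGGctggcgaccgaca
Lss (chr10:76531531-76531560, + strand): ggtgatgctctgATTGGccgagctcgcatc
Cyp51 (chr5:4104709-4104738, - strand): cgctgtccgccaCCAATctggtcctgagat
Dhcr7 (chr7:143830153-143830182, + strand): aatccacttccgATTGGtcgtctgtgacct
Sc5d (chr9:42264307-42264336, - strand): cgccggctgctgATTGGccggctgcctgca
Nsdhl (chrX:72918517-72918546, + strand): ctgtgagcgtcaATTGGttgcgccagagcc

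The letters were thus present both in genes that read higher in Drp1LiKO, such as Lss and Hmgcs1, and in Dhcr7 and Sc5d, which read lower. Of the genes called in untreated cells, Thrsp, Acacb and Insig1 had a CCAAT match in a window and Lpin1 had none, against a match in 41.1% of all genes. Dgat2, also called, had no window.

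Among the 12 fatty acid genes, 2 were called and 1 differed strongly the other way. Its median difference was 0.08 without and 0.16 with palmitate, and it held 7 genes higher in both conditions, 4 lower in both and 1 opposite. Thrsp (Spot14), a small nuclear and cytosolic protein that promotes lipogenesis, read 0.71, 1.75, 0.70 and 1.76. Drp1LiKO was 2.06-fold above control untreated and 2.07-fold with palmitate, and the palmitate responses were −0.01 and 0.01. A second Thrsp probe gave 0.91 and 0.90, so both probes placed both Drp1LiKO arrays above both control arrays. The first lies on chromosome 7 at 104561649 to 104561708 (mm9).

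Acacb, the acetyl-CoA carboxylase at the mitochondrial surface whose malonyl-CoA restrains fatty acid oxidation, read −0.86, 0.43, −1.01 and −0.01 on its brightest probe. That is 2.45-fold and 2.01-fold higher in Drp1LiKO. A second Acacb probe of nearly the same brightness read −0.74, −1.07, 0.11 and −0.07, lower in Drp1LiKO by 0.33 and 0.17 and higher with palmitate by 0.85 and 1.01. The 2 probes therefore do not give 1 answer for Acacb, and the call rests on the first, on chromosome 5 at 114700702 to 114700761 (mm9).

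On the probes that stand for them, the enzymes of the core path differed little between the genotypes. Acly, which makes cytosolic acetyl-CoA from citrate, read 5.27, 5.38, 5.24 and 5.33, while another Acly probe gave genotype differences of 0.58 and 0.51. Acaca, the cytosolic carboxylase, read 3.06, 3.11, 2.72 and 2.79, with differences between the genotypes of 0.05 and 0.07. Another Acaca probe gave 0.86 untreated and 0.06 with palmitate. Fasn, the fatty acid synthase, read 4.88, 4.99, 4.69 and 5.00, the control palmitate array being the lowest. Me1, the malic enzyme that supplies NADPH, read 4.86, 4.71, 4.75 and 4.71, and a second probe of like level gave genotype differences of −0.19 and −0.17.

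Scd1, the main stearoyl-CoA desaturase of the liver, which introduces the double bond of oleate, read 5.08, 4.30, 4.65 and 4.05. It was the member furthest below control in both conditions, at 0.58-fold untreated and 0.66-fold with palmitate. Its second probe differed by −0.72 and −0.52. Both Scd1 probes thus placed the Drp1LiKO arrays lower, and the main probe lies on chromosome 19 at 44469387 to 44469446 (mm9). Scd2, the related desaturase prominent outside the adult liver, read 0.13, 0.50, −0.18 and 0.24, higher in Drp1LiKO by 0.36 and 0.42.

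The elongases Elovl5 and Elovl6 read lower in Drp1LiKO, Elovl5 by 0.36 and 0.32 and Elovl6 by 0.05 and 0.21. Fads1, the delta-5 desaturase of polyunsaturated fatty acids, read 1.77, 2.10, 1.70 and 1.93, higher in Drp1LiKO on all 3 probes in both conditions. Fads2, the delta-6 desaturase, read 2.94, 2.64, 2.76 and 3.06. Its genotype difference was −0.31 untreated and 0.30 with palmitate, the only member with opposite signs. The 3 further Fads2 probes above background on every array gave −0.15, −0.61 and 0.01 untreated and 0.61, 0.62 and 0.49 with palmitate. All 4 of these probes therefore read higher in Drp1LiKO with palmitate, and 3 of 4 read lower untreated. The remaining Fads2 probe was above background on the Drp1LiKO arrays only, and read 2.60 and 1.78 higher there. With the mean of all probes the untreated Fads2 difference was 0.31.

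**Figure D3:**
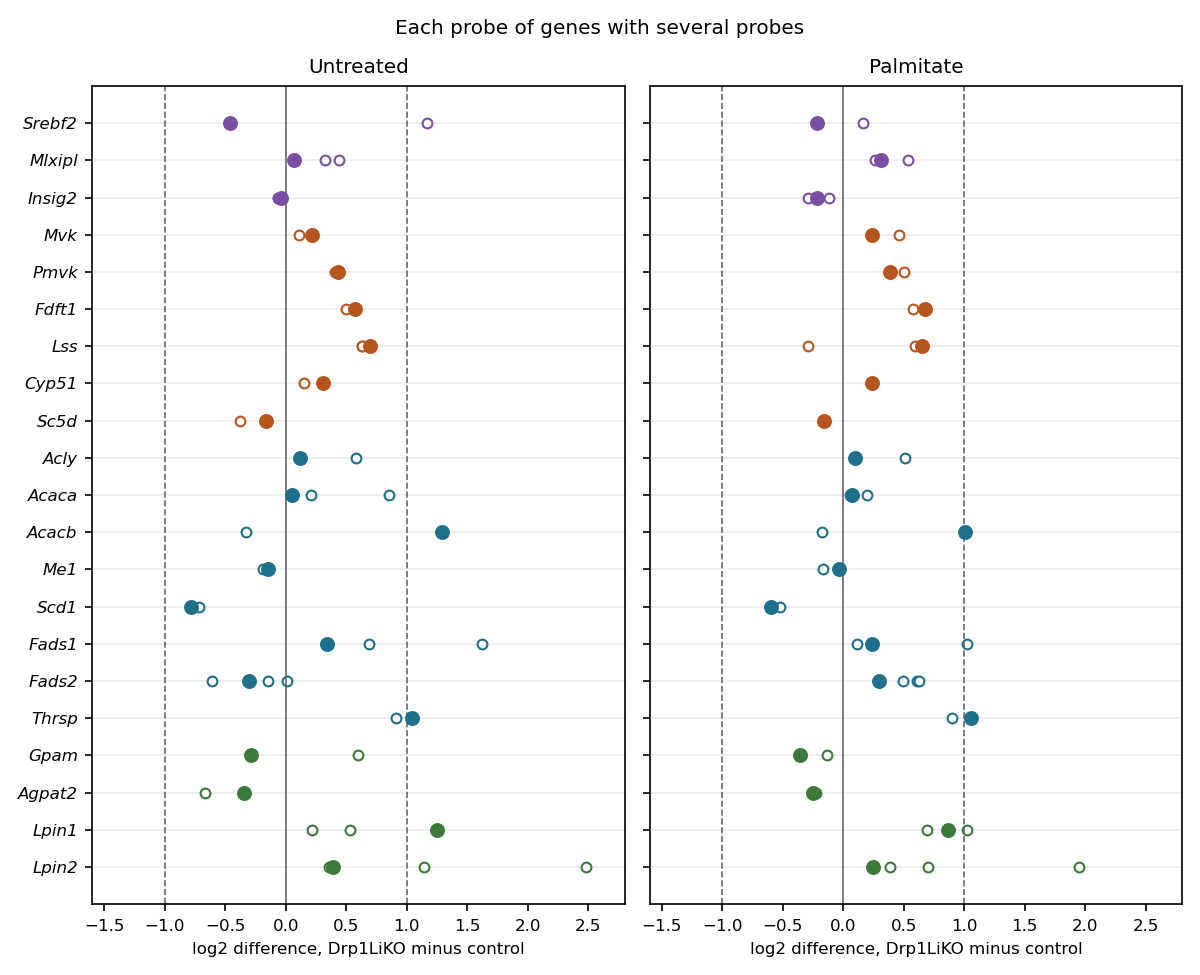
Log2 difference of Drp1LiKO minus control (x axis) for each of 52 probes of the 21 genes with more than 1 probe well above background on all 4 arrays, untreated on the left and with palmitate on the right. Filled points are the probes that stand for the gene and open points the others; the sterol genes in orange keep together but for 1 dim Lss probe with palmitate, while Acacb, Fads1, Srebf2, Gpam, Lpin1 and Lpin2 have probes far apart.

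In the triglyceride branch, Dgat2 and Lpin1 read higher and Gpam, Agpat2 and Dgat1 lower in Drp1LiKO. The median difference was 0.05 in both conditions. Dgat2, the acyltransferase that joins the last fatty acid in newly made triglyceride, read 3.58, 4.60, 3.53 and 4.66. It was 2.03-fold above control untreated and 2.19-fold with palmitate, with palmitate responses of −0.05 and 0.07. The single Dgat2 probe lies on chromosome 7 at 106302215 to 106302274 (mm9). Dgat1, which catalyses the same reaction, read 0.78, 0.34, 0.55 and 0.40, lower in Drp1LiKO by 0.44 and 0.15.

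Lpin1, a phosphatidate phosphatase that also acts as a transcriptional coactivator, read −0.91, 0.34, −1.23 and −0.36, which is 2.38-fold and 1.82-fold above control. A second Lpin1 probe of about the same brightness gave 0.22 and 0.69, and a dimmer one 0.53 and 1.02. These 3 probes, above background on every array, placed Drp1LiKO higher, but only the first passed the threshold in untreated cells. The remaining probe was above background on 1 array of each pair only, and read −0.05 and −1.74. Lpin2, its relative, read 2.71, 3.10, 2.72 and 2.97, with differences of 0.39 and 0.25. Another Lpin2 probe differed by 1.14 and 0.70 and a dim one by 2.48 and 1.95, so the size of the Lpin2 difference depended on the probe, and all 4 probes above background placed Drp1LiKO higher. Gpam, the first acyltransferase of the path at the mitochondrial surface, read 2.17, 1.88, 2.22 and 1.87. Agpat2, the next acyltransferase, read 5.12, 4.77, 5.07 and 4.82. Each had both Drp1LiKO arrays below both control arrays, while a dimmer Gpam probe read 0.59 higher in untreated Drp1LiKO.

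Palmitate called none of the 37 genes in either genotype. The rule called 5.7% of 18772 genes in control and 7.04% of 19747 genes in Drp1LiKO, and 1.01% and 1.86% of the 16611 genes. The members' median response was −0.06 in control and −0.05 in Drp1LiKO. The widest responses were those of Scd1 in control, at −0.44, and of Lpin1 in Drp1LiKO, at −0.70, which was the 1 response past 1.5-fold where 2.19% of the 16611 genes were lower by that much. A second Lpin1 probe responded in Drp1LiKO by 0.29, the other way.

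By branch, the fatty acid genes read lower with palmitate in 11 of 12 cases in control, where 46.6% of the 16611 genes read lower. In Drp1LiKO 9 of 12 read lower, against 48.1%, and 8 of 12 in both genotypes, against 30.8%. These counts rest on the probes that stand for the genes. Second probes of the branch gave the same sign in 10 of 12 cases in control and in 11 of 17 in Drp1LiKO. Acacb, counted as lower, read higher by 0.85 and 1.01 on its other bright probe. Some falls in control were within the spot noise, with Thrsp at −0.01 and Acly at −0.03. Acaca fell short of the 2-fold threshold with the same size in both genotypes, −0.34 and −0.32. Scd1 responded by −0.44 and −0.25 and Scd2 by −0.31 and −0.26. The median response of the branch was −0.15 in control and −0.11 in Drp1LiKO. The sterol genes had medians of 0.05 and 0.03, with Idi1 the highest in control at 0.21. In the triglyceride branch the medians were −0.05 and 0.02.

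**Figure D4:**
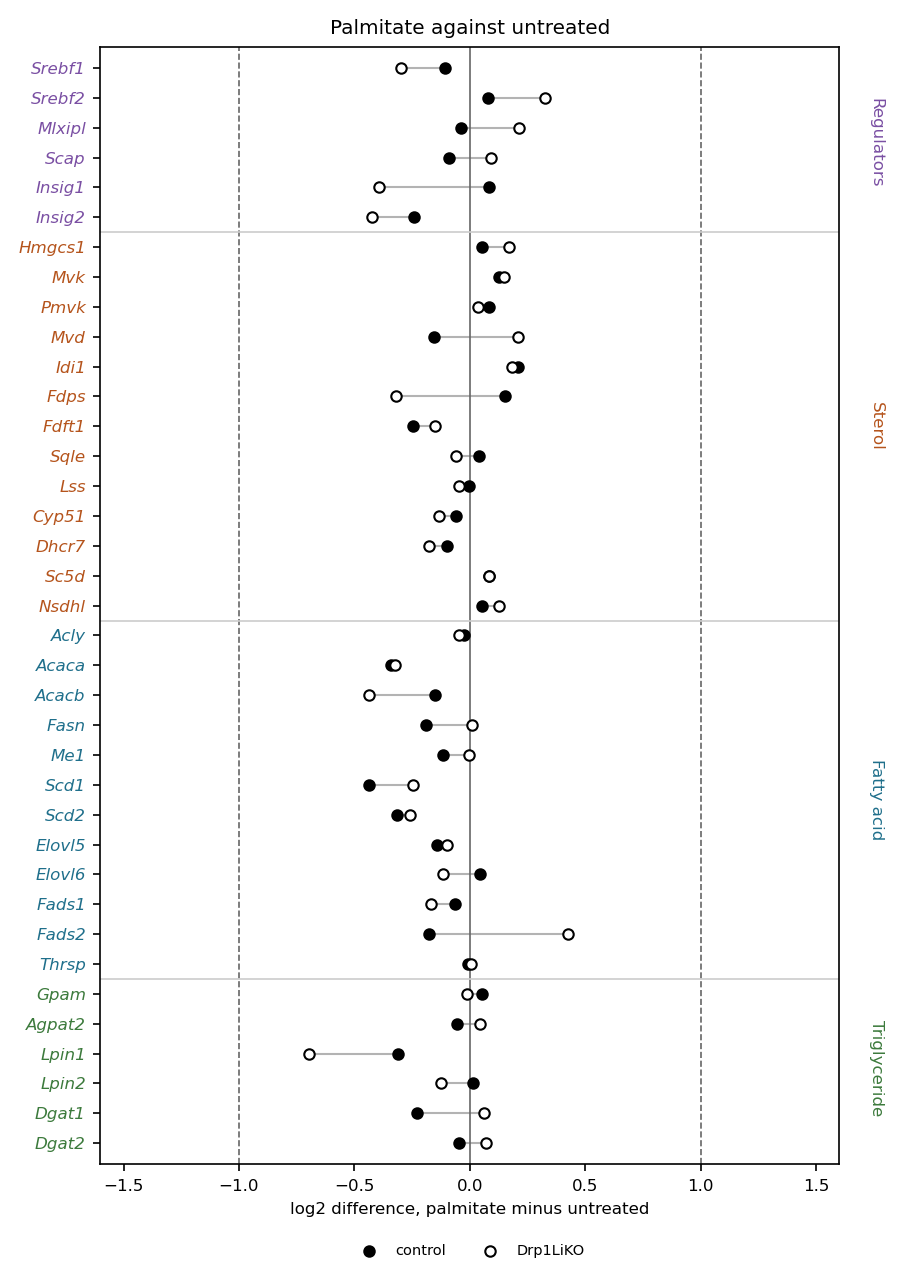
Log2 difference of palmitate minus untreated (x axis) for each gene, in control (filled) and Drp1LiKO (open), with dashed lines at 2-fold. No gene reaches a dashed line, most fatty acid genes lie left of 0, and Fads2, Fdps, Insig1, Lpin1 and Mvd have points far apart.

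Palmitate and untreated arrays lie on different slides, so these responses include any difference between slides. The 2 responses of a gene differed by 0.60 for Fads2, which responded by −0.18 in control and by 0.43 in Drp1LiKO. Fdps responded by 0.15 and −0.32, Insig1 by 0.08 and −0.39, and Mvd by −0.15 and 0.21. With 1 array per group these differences could not be tested.

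A fit over all 4 arrays asked for a common genotype difference and a common palmitate response. In limma with genotype and palmitate as terms, 0 of 20615 genes (0%) were called for genotype at a Benjamini-Hochberg adjusted p under 0.05, and 5363 (26.0%) had an unadjusted p under 0.05. The fit has 1 residual degree of freedom, which also holds any interaction. It treats the 4 arrays as independent, while both arrays of a genotype may come from the same animal or cell preparation. Of the members 0 were called, and 15 of 37 had an unadjusted p under 0.05, with 12 of the 15 higher in Drp1LiKO. Thrsp had a fitted difference of 1.05 ± 0.07 (moderated SE) and limma's adjusted p of 0.119, and Dgat2 1.08 ± 0.08 with the same adjusted p. For Lss it was 0.68 ± 0.07 and for Scd1 −0.69 ± 0.09, with limma's adjusted p at 0.124 and 0.138. For palmitate limma called 0 genes, 1995 (9.68%) had an unadjusted p under 0.05, and among the members that was Acaca alone, at −0.33 ± 0.07 with an adjusted p of 0.511. For genotype, limma called 1517 of 20615 genes under normexp, among them 5 of 37 members (4 higher). When restricted to probes above background on all 4 arrays, it called 2592 of 16619 genes, among them 7 of 37 members (6 higher). Where the variance was let follow the intensity (trend), limma called 5354 genes (26.0%) for genotype, among them 20 members with 15 higher, and 186 (0.902%) for palmitate with 0 members.

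Further genes of the same paths, listed beside the members, were split in direction. Of 14 other sterol genes on the array, 6 read higher and 8 lower in untreated Drp1LiKO, with a median difference of −0.10, and with palmitate the split was also 6 and 8. Msmo1, the methylsterol oxidase that works between Cyp51 and Nsdhl, read 4.46, 5.12, 4.50 and 4.93, a difference of 0.67 and 0.43. Ebp, a sterol isomerase late in the path, had genotype differences of −0.19 and −0.26. Soat1, a cholesterol acyltransferase, was 1.48 higher in untreated Drp1LiKO at a level near the background.

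Of 24 other fatty acid genes, 9 read higher and 15 lower in untreated Drp1LiKO, with a median of −0.10. Oxsm, the mitochondrial 3-oxoacyl-ACP synthase, read 1.41, 2.49, 2.46 and 3.67, so it was called in all 4 comparisons, higher with Drp1 loss and with palmitate. Elovl2, an elongase of polyunsaturated fatty acids, read −0.06, −1.06, −0.13 and −1.12, lower in Drp1LiKO by 1.00 and 0.99, just under the threshold. Fads3 read 6.12, 5.44, 5.99 and 5.35. Of 11 other triglyceride genes 2 read higher and 9 lower, with a median of −0.23, and Agpat1, an acyltransferase like Agpat2, read 0.33, 1.44, 0.43 and 1.06. Agpat1 was thus called in untreated cells at 1.11 and differed by 0.63 with palmitate.

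The level of a probe bears on these counts. Of the 16611 genes, those with a mean level under −1 were at least 2-fold higher in untreated Drp1LiKO in 6.94% of cases, as was Insig1. At levels from −1 to 1, where Acacb and Lpin1 lie, the share was 4.18%. From 1 to 3, where Thrsp lies, it was 2.64%, and above 3, where Dgat2 lies, it was 1.34%.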

How the data were processed

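RNA of 4 samples was labelled with Cy3 and hybridised to 1-colour mouse oligonucleotide arrays. Per the file headers, the deposited scanner tables hold linear intensity values written by Feature Extraction 10.7.1.1 (the submitters' processing notes name 9.5.1.1), with background subtracted within each array and no scaling between arrays. A processed table from the authors, of linear intensity with the same distribution in all 4 columns, served as 1 of the alternatives. For RNA extraction, labels and methods name different kits. Processed signals were set to log2 and each array's 75th percentile was subtracted; control and outlier spots were left out, no spot was saturated, and repeat spots were averaged. A gene entered a pair if its probe passed the background flag on 1 or both of its 2 arrays, and was called at 2-fold without a p-value. The fit over 4 arrays used limma 3.58.1 in R 4.3.3. Its code was run on simulated data with independent noise on each array, which cannot test for shared animals or cell preparations. The number of arrays limits the precision. Flags of the scanner, given as 0 or 1 by the authors' software in the deposited tables, set what counts as above background. Probe coordinates are those of the array annotation (mm9); the gene part each probe lies in is not given in the sources used here. All 37 members were named, with Dnm1l and other pathway genes at least 2-fold in any pair on probes above background on both arrays; Msmo1, Ebp, Elovl2 and Fads3 were chosen after their values were seen. Members and lists were chosen with earlier results of these data known. Alternatives were normexp (offset 50), the authors' table, median centring, the mean of probes, stricter and no filters, 1.5-fold, the trend and, chosen after seeing the data, the second-brightest probe.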

Additional observations from a re-analysis of the deposited data

Results flagged for a closer look

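Some genes responded in opposite directions in 2 groups, each by more than 2 times the spot noise, and none of these differences was tested. Fads2, on the probe that stands for it, had a genotype difference of −0.31 untreated and 0.30 with palmitate. Its palmitate response was thus 0.60 larger in Drp1LiKO than in control. Fdps responded to palmitate by 0.15 in control and by −0.32 in Drp1LiKO, a difference of −0.47. Mvd responded by −0.15 and 0.21, a difference of 0.36.

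Probes that do not stand for their gene also held differences of at least 2-fold between the genotypes. Among probes above background on both arrays of a pair, the largest was on a dim Lpin2 probe, at 2.48 untreated and 1.95 with palmitate, and another Lpin2 probe gave 1.14 untreated. For Fads1, 1 further probe gave 1.62 untreated and another gave 1.03 with palmitate. The dim Srebf2 probe gave 1.17 untreated, against −0.46 on the probe that stands for the gene. A dim Lpin1 probe gave 1.02 with palmitate. All of these were higher in Drp1LiKO, and what sets these probes apart was not tested.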

How the results depend on the processing

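No paired analysis was possible because the labels give no replicate numbers and each group has 1 array; limma's genotype term compares the genotypes within each slide through its palmitate term. In untreated cells the 5 members called became 2 under normexp, 3 with the mean of all probes, 3 with the second-brightest probe (22 genes compared) and 8 at 1.5-fold. The authors' table called 6, with Fdps added at 1.05. With palmitate the 3 called became 1 with the mean of probes, 1 with the second-brightest probe and 7 at 1.5-fold. Normexp called 2 there, and the authors' table also 2, with Acacb at 0.99. The palmitate response in Drp1LiKO, with 0 called, gave 1 with the mean of probes, 5 with the second-brightest probe and 1 at 1.5-fold. Acacb reversed because its other probe was taken: −0.30 and −0.15 under normexp and −0.33 and −0.17 with the second-brightest probe, untreated and with palmitate. Dgat2 kept 2-fold under normexp, the authors' table and median centring in both conditions. It has 1 probe, above background on every array, so the mean of probes and the filters could not change its value. The median of the members moved with the mean of probes to 0.28 untreated, 0.32 with palmitate and −0.12 for palmitate in Drp1LiKO, and to −0.18 for palmitate in control with the second-brightest probe. For genotype, limma called 1517 of 20615 genes (5 of 37 members) under normexp and 5354 of 20615 with the trend. With probes above background on all 4 arrays it called 2592 of 16619 (7 of 37 members). For palmitate the trend gave 186. The other alternatives kept a count of 0. All 37 members were above background on every array, and each value rests on 1 array per group.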
